A study of Mus musculus with 4 samples.

Results

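Potassium channel genes and the sulfonylurea receptor genes were taken as every gene whose GRCm38 symbol begins with Kcn, together with Abcc8 and Abcc9. The rule gave 101 of the 55421 gene identifiers in the count tables, of which 96 were protein-coding and 5 were antisense transcripts. RNA came from material that the labels call macrophages of the islet, from C57BL/6 mice of wild-type genotype, with 2 libraries per diet, normal chow (NCD) or high-fat (HFD). All libraries share strain, genotype and labelled tissue, and no age, sex or length of feeding was given in the labels. Whether a library stands for 1 animal or a pool is also not given, so the p-values reflect only how far these libraries differ from each other, a spread that may be technical.

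Potassium channels set the resting potential of excitable and immune cells. In the beta cell, ATP made from glucose closes the ATP-sensitive potassium (KATP) channel, the membrane depolarises, calcium enters and insulin is released. A KATP channel is built from an inward-rectifier pore and a sulfonylurea receptor, and sulfonylurea drugs act by closing it. Beta cells use the pore of Kcnj11 with the receptor of Abcc8, whereas pericytes and vascular smooth muscle use that of Kcnj8 with Abcc9. Voltage-gated and calcium-activated potassium channels repolarise the cell after each action potential. In lymphocytes and macrophages, potassium efflux keeps the potential negative for calcium entry and is a signal for the inflammasome.

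Library totals lay between 56740720 and 64490097 counts. Levels are given as CPM, the count scaled to library size after TMM normalization (trimmed mean of M values), and levels of different genes were compared only as CPM per kb of merged exons. Changes are log2 changes of HFD minus NCD with their standard error (SE) over n = 2 libraries per diet, from edgeR's quasi-likelihood test over 21563 genes, and a gene was called where the p adjusted by Benjamini-Hochberg was under 0.05. All 7 macrophage genes were present, from Mertk at 4.49 CPM per kb and Adgre1, which encodes F4/80, at 9.47 CPM per kb to Cd68 at 116 and Lyz2 at 286 CPM per kb in NCD, whereas Ins2, which encodes insulin, stood at 7493 CPM per kb. In such bulk material, fewer cells of a type and less RNA per cell cannot be told apart. Lists of marker genes moved with diet. In beta cells 7 of 9 markers were lower and none higher, and the list's sum went from 17460 and 17941 CPM to 13598 and 14239 CPM. Smooth muscle and pericyte markers summed to 149 and 142 CPM in NCD against 353 and 358 CPM in HFD (5 of 7 tested higher, none lower, with Cnn1 at or near 0). The sum of 7 T cell markers went from 10.96 and 9.37 CPM to 61.8 and 57.8 CPM, and that of 7 B cell markers from 532 and 530 CPM to 3480 and 3525 CPM, all of these genes being higher. The 6 fibroblast markers were all higher, their sum going from 70.3 and 73.7 CPM to 1092 and 1122 CPM, as were the 8 acinar markers, from 404 and 425 CPM to 2763 and 3102 CPM. Of 6 alpha cell markers 4 were higher and none lower, with sums of 9335 and 9789 CPM and of 13266 and 13946 CPM. Endothelial markers had 4 of 6 higher and 2 lower, ductal markers 2 of 5 higher and 1 lower, Schwann cell and neuron markers 2 of 8 higher and 1 lower, and delta and PP cell markers 3 of 4 lower and none higher. The macrophage and monocyte lists are given beside Kcnk6. The part of these markers in the results below was not tested.

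Of the 101 members 94 had a count in some library and 77 had enough counts to be tested. In HFD 18 of the 77 were lower and 10 were higher, which is 23.4% and 13%, where 14.5% of all genes tested were lower and 17.9% higher (32.4% in either direction). Those that fell included the most abundant members, Abcc8, Kcnk16, Kcnj11 and Kcnh2, all lower by 1.62-fold to 1.73-fold, and those that rose furthest were Kcnq5, Kcne4, Kcnn4 and Abcc9. The median log2 change of the tested members was -0.10, and that of all genes tested was 0.003. The diets did not overlap in 53 of the 77 members, or 68.8%, beside 67.7% of all genes tested. Of the 77 tested members, 5 were called higher and 3 lower with a change of at least 2-fold. Among all genes tested, 10% were called higher and 1.33% lower with such a change. Leaving out NCD replicate 1 reduced the number of lower members to 9, and the 9 were among the 18. Of the 26 members with a mean of at least 10 CPM, a level chosen after the values were seen, 11 were lower and 6 higher, where 24.6% of all genes at that level were lower and 20.5% higher.

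**Figure D1:**
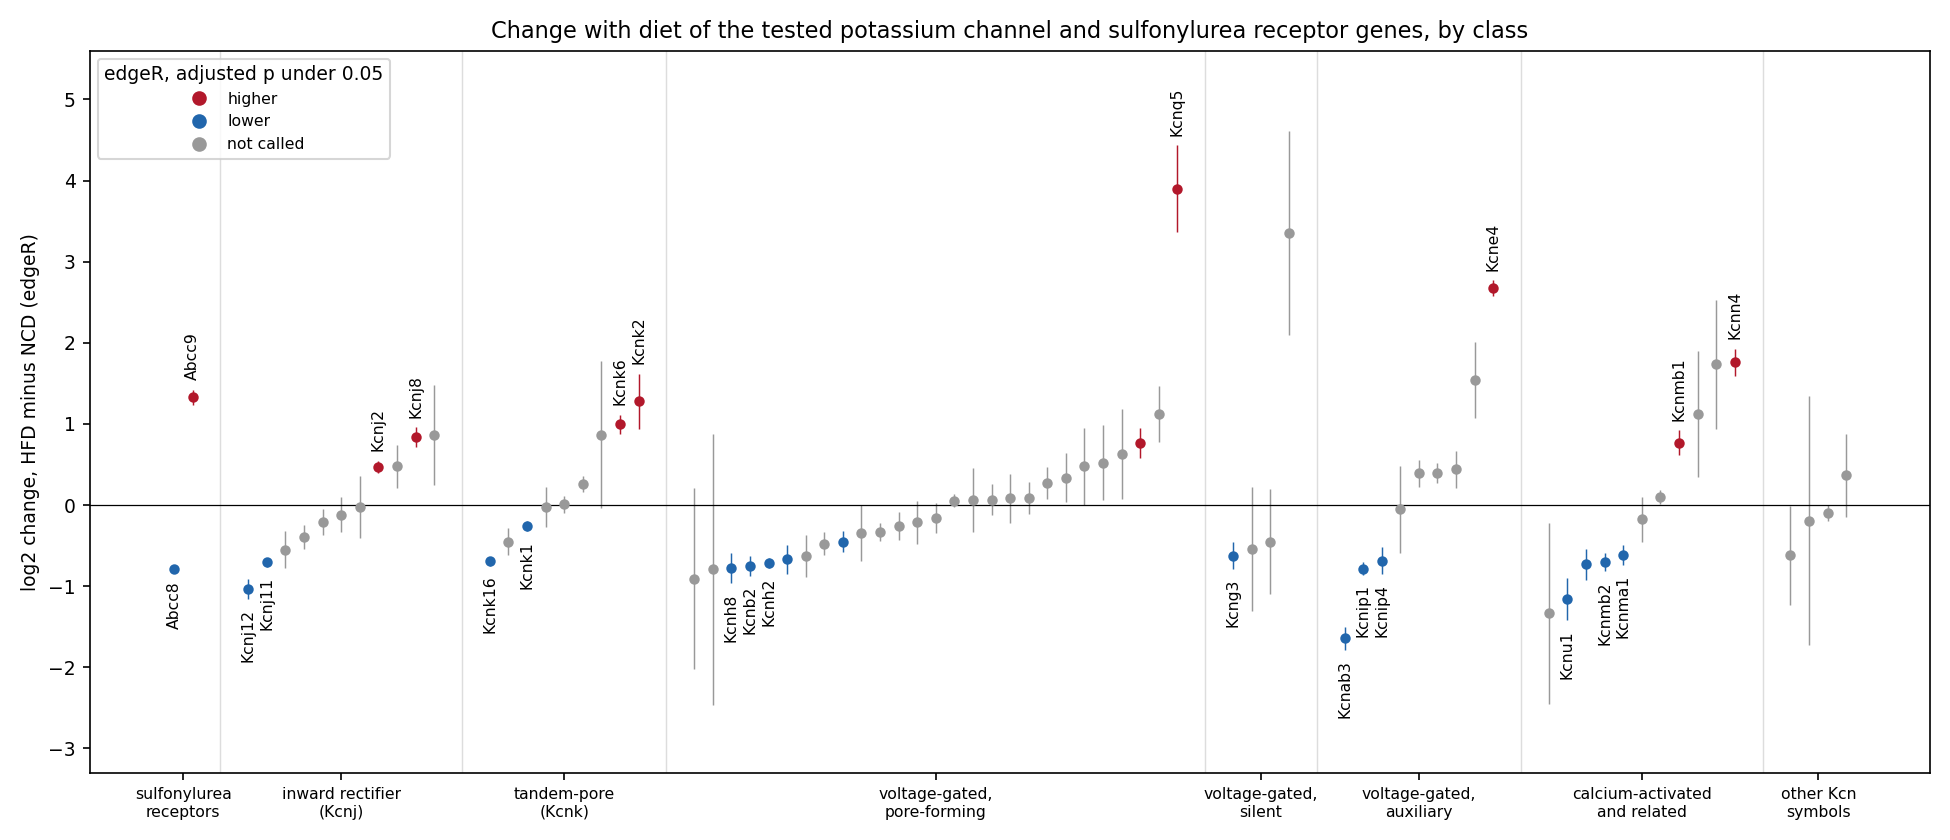
Log2 change of HFD minus NCD with its SE (bars, edgeR fit over 2 libraries per diet) for the 77 tested genes, ordered by change within each class, with called genes coloured and those that the naming rule chose named. Called falls lie mostly between -0.5 and -1, while the called rises reach 3.90 for Kcnq5.

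The summed level of all members was 468 and 465 CPM per kb in NCD and 353 and 357 CPM per kb in HFD. Sulfonylurea receptors, in effect Abcc8, made up 35.0% and 34.6% of that sum in NCD and 28.6% and 27.9% in HFD. Auxiliary subunits of voltage-gated channels went the other way, from 7.93% and 8.41% to 14.2% and 14.6%, through Kcne4. Without Kcne4 the sum of this class was 33.0 and 35.2 CPM per kb in NCD and 26.0 and 24.7 CPM per kb in HFD. The shares of inward rectifiers (14% to 14.9%) and of pore-forming voltage-gated channels (13.4% to 14%) overlapped between the diets. Tandem-pore channels, whose subunits carry a pair of pore loops, held 23.0% and 23.8% in NCD and 22.7% and 22.8% in HFD.

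**Figure D2:**
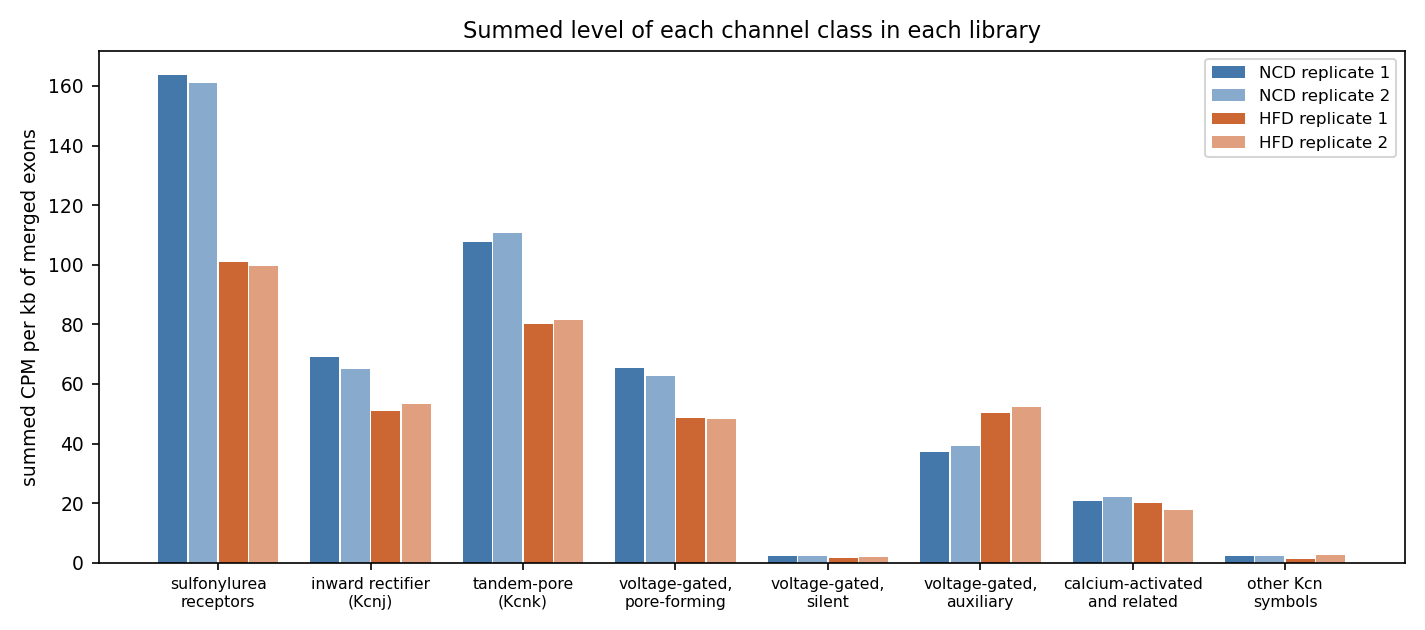
Summed CPM per kb of merged exons of every member of each class (y axis) in each of the 4 libraries (bars). Sulfonylurea receptors stand at 164 and 161 in NCD and 101 and 99.6 in HFD, and the auxiliary subunits, which include Kcne4, are the class whose sum is higher in both HFD libraries.

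The pancreatic KATP pair fell with diet and the vascular pair rose. Kcnj11 encodes Kir6.2, the pore of the beta cell channel, and Abcc8 encodes its regulatory subunit SUR1. Kcnj11 stood at 167 and 163 CPM in NCD against 97.6 and 105 CPM in HFD. Both HFD libraries were well below both NCD libraries, a fall of 0.70 on the log2 scale (SE 0.06, edgeR adjusted p = 0.000707). Abcc8 stood at 1298 and 1273 CPM in NCD against 747 and 740 CPM in HFD, so that the libraries of a diet differed little and the diets did not overlap. Its log2 change was -0.79 (SE 0.03, edgeR adjusted p = 9.4e-05). Per kb, Abcc8 exceeded Kcnj11 by 3.54-fold and 3.56-fold in NCD and by 3.48-fold and 3.22-fold in HFD, although the channel holds equal numbers of both proteins. These genes are neighbours on chromosome 7 (GRCm38), on the same strand with 3758 bases between them. Of the 9 beta cell markers, the 7 called lower had log2 changes from -1.44 for Ucn3 to -0.21 for Ins2. The median of the list was -0.51, and Ins1 (0.05) and Slc2a2 (-0.01) were not called. Other endocrine lists differed from it. Alpha cell markers had a median of 0.65, with 4 of 6 higher and none lower. Delta and PP cell markers had a median of -0.30, with 3 of 4 lower and none higher. Which endocrine cells account for the fall of the pair was not tested.

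Kcnj8 encodes Kir6.1 and Abcc9 encodes SUR2. Abcc9 stood at 26.3 and 29.9 CPM in NCD against 73.0 and 68.1 CPM in HFD, 2.51-fold higher (log2 change 1.33, SE 0.09, edgeR adjusted p = 0.000418). Kcnj8 stood at 12.9 and 11.4 CPM in NCD against 20.6 and 22.8 CPM in HFD, 1.78-fold higher (log2 change 0.84, SE 0.12, edgeR adjusted p = 0.00519). For both genes the HFD libraries were above the NCD libraries. They too are neighbours, 16247 bases apart on the same strand of chromosome 6. Abcc9 shares 158 of its 8373 exonic bases with a transcript of the opposite strand, and reads of the pair cannot be told apart if strand was not used in counting. Of 7 tested smooth muscle and pericyte markers 5 rose beside this pair. Among them were Pdgfrb, from 47.2 and 43.8 to 136 and 140 CPM, and Rgs5, from 71.0 and 67.0 to 112 and 114 CPM. The pericyte gene Cspg4 stood at 9.53 and 8.02 CPM in NCD against 7.30 and 9.18 CPM in HFD. Neither Cspg4 nor Tagln was called. All 6 fibroblast markers were also higher (median log2 change 3.66), and endothelial markers had 4 of 6 higher and 2 lower.

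The makeup of KATP subunit transcripts differed between the diets. Kcnj8 made up 10.1% and 9.20% of the Kcnj8 and Kcnj11 total per kb in NCD and 23.4% and 23.9% in HFD. Abcc9 made up 1.92% and 2.22% of the receptor total in NCD and 8.63% and 8.17% in HFD. Neither share overlapped between the diets, which follows from the opposite changes of the genes in each share and is no further evidence. For the same reason an exact permutation test (two-sided) could only give p = 0.333 for each, the smallest value that 2 libraries against 2 can give. All 4 genes together held 45.7% and 45.0% of the summed level of the members in NCD and 38.4% and 38.4% in HFD.

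**Figure D3:**
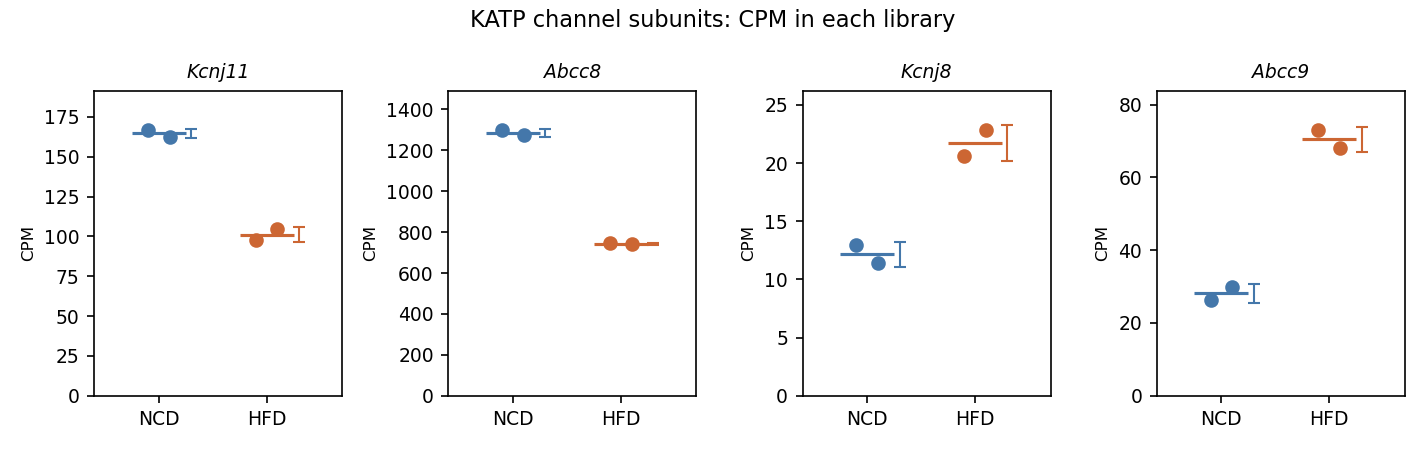
CPM (y axis, from 0, a separate scale for each gene) of the 4 KATP subunit genes in each library (points), with the mean (line) and SD (bar, n = 2) of each diet. Kcnj11 and Abcc8 are lower in both HFD libraries, and Kcnj8 and Abcc9 are higher in both.

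The RefSeq table of start-site windows for GRCm38.p6, from 250 bases before to 50 after a gene's start, held 98 windows for 73 of the members, with no entry for Kcnj11 or Abcc8. Shown here are the windows of the KATP pair that rose, of Kcne4 and Kcnn4, whose rises were the largest among members with a mean of at least 10 CPM over all 4 libraries, a level that Kcnn4 reached through HFD, and of Kcnk16, the islet channel that fell. Capitals mark matches, on either strand, to the E-boxes CACGTG and CAGCTG and to the GC box GGGCGG, motifs searched after the calls were known. The TATA box TATAAA was also searched and had no match in the windows shown.
Abcc9, chr6:142702225-142702524, strand minus: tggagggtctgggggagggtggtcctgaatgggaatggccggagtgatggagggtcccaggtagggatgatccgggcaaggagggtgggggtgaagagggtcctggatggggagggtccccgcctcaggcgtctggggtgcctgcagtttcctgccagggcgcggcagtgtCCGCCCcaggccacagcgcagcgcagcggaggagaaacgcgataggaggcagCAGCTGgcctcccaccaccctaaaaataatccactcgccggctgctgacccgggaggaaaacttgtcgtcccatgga
Kcnj8, chr6:142571565-142571864, strand minus: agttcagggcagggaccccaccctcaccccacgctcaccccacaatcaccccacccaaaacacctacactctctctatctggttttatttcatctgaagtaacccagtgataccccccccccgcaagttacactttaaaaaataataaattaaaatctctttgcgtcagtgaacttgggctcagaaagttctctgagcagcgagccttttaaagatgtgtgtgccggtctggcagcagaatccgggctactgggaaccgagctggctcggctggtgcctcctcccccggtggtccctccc
Kcne4, chr1:78816661-78816960, strand plus: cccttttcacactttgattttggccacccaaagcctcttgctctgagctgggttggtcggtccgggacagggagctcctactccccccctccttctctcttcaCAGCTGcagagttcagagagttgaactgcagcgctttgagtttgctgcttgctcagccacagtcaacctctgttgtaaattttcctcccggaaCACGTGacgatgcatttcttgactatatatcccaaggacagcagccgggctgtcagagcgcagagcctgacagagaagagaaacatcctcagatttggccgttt
Kcnn4, chr7:24370013-24370312, strand plus: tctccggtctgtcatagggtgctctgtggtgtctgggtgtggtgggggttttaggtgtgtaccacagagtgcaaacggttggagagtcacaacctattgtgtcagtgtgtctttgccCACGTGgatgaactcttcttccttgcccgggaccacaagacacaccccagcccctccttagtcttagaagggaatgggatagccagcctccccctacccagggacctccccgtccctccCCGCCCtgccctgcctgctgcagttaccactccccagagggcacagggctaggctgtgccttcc
Kcnk16, chr14:20269220-20269519, strand minus: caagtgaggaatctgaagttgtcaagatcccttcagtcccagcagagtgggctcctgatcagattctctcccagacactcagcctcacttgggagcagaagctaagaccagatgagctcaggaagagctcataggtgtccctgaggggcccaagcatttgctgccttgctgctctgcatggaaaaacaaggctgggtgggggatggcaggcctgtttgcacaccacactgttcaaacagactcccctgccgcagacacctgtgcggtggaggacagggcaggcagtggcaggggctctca
The neighbours Abcc9 and Kcnj8 share none of these motifs, since the Abcc9 window holds CAGCTG and GGGCGG and the Kcnj8 window has no match. Kcne4 and Kcnn4 both hold CACGTG, which was found in 3 of the 8 higher members with a window (the third being Kcnj2) and in none of the 12 lower ones, and in 8.09% of the 27025 genes in the table, a gene counting where any of its windows matched. CAGCTG was found in 4 of the 8 higher and 2 of the 12 lower members and in 18.3% of all genes. The GC box was in 4 of the 8, 7 of the 12 and 38.2% of all genes, and the TATA box was in none of either and 15.7% of all genes. Over all 32851 windows of that length the shares were 7.15% for CACGTG, 16.3% for CAGCTG, 35.7% for the GC box and 13.6% for the TATA box. GC content of the windows shown ran from 52.7% for Kcne4 to 65.7% for Abcc9, with a median of 52.7% over all windows.

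Among the other inward rectifiers, 2 of the strong rectifiers of the Kir2 family, which hold cells at a negative resting potential, were called in opposite directions. The other Kir2 genes, Kcnj4 (log2 change -0.55, SE 0.23, edgeR adjusted p = 0.128) and Kcnj14 (0.86, SE 0.62, edgeR adjusted p = 0.354), named after their values were seen, were not called. Kcnj2, which encodes Kir2.1 and is found in endothelium, muscle and macrophages, stood at 31.2 and 29.2 CPM in NCD against 42.0 and 41.6 CPM in HFD. This was a rise of 1.38-fold (log2 change 0.47, SE 0.07, edgeR adjusted p = 0.00686), the smallest among the members called higher. Kcnj12, which encodes the related Kir2.2, stood at 13.6 and 12.8 CPM in NCD against 6.36 and 6.53 CPM in HFD. Its HFD libraries were at less than 7 CPM, and its log2 change was -1.03 (SE 0.13, edgeR adjusted p = 0.00290). Of the 15 Kcnj genes 11 were tested, of which 2 were higher, 2 lower and 7 not called. G protein-gated Kcnj6 was the most abundant of the 7 per kb in NCD, and named after its values were seen, with 16.9 and 13.7 CPM in NCD against 12.1 and 11.2 CPM in HFD (edgeR adjusted p = 0.0942). Kcnj1, Kcnj5, Kcnj13 and Kcnj16 had at most 16 counts in any library.

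Tandem-pore channels carry the background potassium current that sets the resting potential. Kcnk16, which encodes TALK-1, a channel largely restricted to the pancreas, ranked second among members per kb, at 69.2 CPM per kb in NCD and 42.8 CPM per kb in HFD. It stood at 160 and 169 CPM in NCD against 101 and 102 CPM in HFD, with a fall of 0.69 on the log2 scale (SE 0.05, edgeR adjusted p = 0.000588), close in size to that of Kcnj11. Kcnk6, encoding TWIK-2, through which potassium leaves macrophages when the inflammasome is activated, stood at 8.19 and 8.76 CPM in NCD against 16.3 and 17.5 CPM in HFD. It rose 1.99-fold (SE of the log2 change 0.12, edgeR adjusted p = 0.00275), in libraries whose macrophage list of 7 genes had 2 members higher and 4 lower, with sums of 850 and 820 CPM in NCD against 692 and 692 CPM in HFD. Of 4 monocyte markers 3 were higher and none lower, and their sum went from 15.4 and 14.99 CPM to 94.5 and 98.2 CPM. Its relative Kcnk1 stood at 48.6 and 48.7 CPM in NCD against 41.6 and 39.7 CPM in HFD (log2 change -0.26, SE 0.07, edgeR adjusted p = 0.0342). The call of Kcnk1 was lost without any 1 of the 4 libraries (edgeR adjusted p from 0.0895 to 0.146).

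Kcnk2, encoding the stretch-gated TREK-1, was low, at 0.636 and 0.724 CPM in NCD against 1.82 and 1.48 CPM in HFD. Its rise (log2 change 1.28, SE 0.34, edgeR adjusted p = 0.0371) was lost without any 1 of the 4 libraries (edgeR adjusted p from 0.0788 to 0.177) and in the Wald test of DESeq2 (adjusted p = 0.0594). Of the 14 Kcnk genes 9 were tested, 2 higher, 2 lower and 5 not called. The acid-sensitive channels Kcnk3 and Kcnk5, named after their values were seen, were among those not called. Kcnk3 stood at 15.2 and 15.3 CPM in NCD against 18.3 and 18.1 CPM in HFD (edgeR adjusted p = 0.105), and Kcnk5 at 16.3 and 15.9 CPM and at 15.6 and 16.8 CPM (edgeR adjusted p = 0.952).

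Pore-forming voltage-gated channels were the largest class, with 30 genes, of which 27 were tested, 5 lower, 2 higher and 20 not called. Kcnh2, which encodes the ERG channel that slows firing in beta and alpha cells, was the most abundant of them per kb. It stood at 133 and 123 CPM in NCD against 78.5 and 77.8 CPM in HFD, a fall of 0.71 on the log2 scale (SE 0.06, edgeR adjusted p = 0.000806). Both HFD values were below 80 CPM and both NCD values above 120 CPM. Kcnb2, a delayed rectifier of the Kv2 family, stood at 18.8 and 16.8 CPM in NCD against 9.99 and 11.2 CPM in HFD (log2 change -0.75, SE 0.13, edgeR adjusted p = 0.00861).

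Kcnh8, an ELK channel, stood at 6.57 and 5.63 CPM in NCD against 3.36 and 3.74 CPM in HFD (log2 change -0.78, SE 0.19, edgeR adjusted p = 0.0270), and its call was lost without NCD replicate 1 (edgeR adjusted p = 0.111), HFD replicate 1 (0.107) and HFD replicate 2 (0.0671), each left out alone. Also called lower, and named after its values were seen, was Kcnh6, a second ERG gene, from 24.9 and 28.3 to 21.2 and 17.7 CPM (edgeR adjusted p = 0.0463). Kcnh6 was called in none of the fits that lacked NCD replicate 1 (edgeR adjusted p = 0.0576), NCD replicate 2 (0.165) and HFD replicate 2 (0.165).

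Kcnq5, a Kv7 channel of neurons and smooth muscle, had 10 and 6 counts in NCD against 152 and 77 counts in HFD, or 0.155 and 0.0965 CPM against 2.45 and 1.36 CPM. Its fitted log2 change was 3.90 (SE 0.53, edgeR adjusted p = 0.00426), a size that rests on NCD counts below the 12 counts per library taken as the floor of detection. Kcna3, the Kv1 channel of T cells and macrophages and named after its values were seen, stood at 2.62 and 1.42 CPM in NCD against 3.99 and 4.84 CPM in HFD, and missed the threshold (log2 change 1.13, SE 0.34, edgeR adjusted p = 0.0570). T cell markers rose by a median of 3.30 on the log2 scale in the same libraries, whereas the median of the macrophage markers was -0.27. Other lists rose too, with medians of 2.73 for B cell, 2.63 for monocyte, 2.90 for acinar and 3.66 for fibroblast markers.

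Electrically silent subunits form no channel alone and modify Kv2 channels. Of 10 such genes 4 were tested and 1, Kcng3, was called, standing at 6.84 and 6.75 CPM in NCD against 4.15 and 4.68 CPM in HFD (log2 change -0.62, SE 0.16, edgeR adjusted p = 0.0369). That call was lost without any 1 of the 4 libraries (edgeR adjusted p from 0.0744 to 0.142). Kcnf1, Kcns3 and Kcng4 were each under 1 CPM in every library and not called.

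Auxiliary subunits, which change the gating, traffic or calcium response of voltage-gated channels, held the rise of smallest p and the largest fall among the called members. Kcne4 encodes a single-span subunit that damps Kv1 and Kv7 currents and is prominent in vascular smooth muscle and leukocytes. It stood at 10.8 and 10.6 CPM in NCD against 64.2 and 73.1 CPM in HFD, so that the lowest HFD library lay far above both NCD libraries. Kcne4 rose 6.39-fold (log2 change 2.68, SE 0.09, edgeR adjusted p = 6.7e-05). By level per kb it went from rank 17 among the members in NCD to rank 4 in HFD, at 4.04 and 25.8 CPM per kb. Kcnab3 encodes a cytoplasmic beta subunit of Kv1 channels and stood at 11.8 and 12.5 CPM in NCD against 3.75 and 4.03 CPM in HFD. Kcnab3 fell by 1.64 on the log2 scale (SE 0.14, edgeR adjusted p = 0.000917), the largest fall among the members called. Its antisense partner Kcnab3os, which shares 147 exonic bases with it, stood at 0.744 and 0.868 CPM in NCD against 0.275 and 0.777 CPM in HFD and was not called (edgeR adjusted p = 0.499).

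KChIP proteins are calcium sensors that bind Kv4 channels. Kcnip1 was the most abundant auxiliary gene in NCD per kb, and stood at 111 and 125 CPM in NCD against 68.9 and 68.4 CPM in HFD (log2 change -0.78, SE 0.08, edgeR adjusted p = 0.00128). Kcnip4 stood at 8.03 and 8.22 CPM in NCD against 4.60 and 5.49 CPM in HFD (log2 change -0.69, SE 0.16, edgeR adjusted p = 0.0274), and the call was removed by leaving out NCD replicate 1 (edgeR adjusted p = 0.0840), NCD replicate 2 (0.0885) or HFD replicate 1 (0.108). The Kv4 pores that they bind, named after their values were seen, were low and not called, Kcnd1 at 4.12 to 5.08 CPM, Kcnd2 at 3.08 to 3.39 CPM and Kcnd3 at 0.840 to 1.41 CPM over the 4 libraries. Of the 12 auxiliary genes 9 were tested, 1 higher, 3 lower and 5 not called.

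Calcium-activated channels split between subunits of the same channel. Kcnma1, the pore of the large-conductance BK channel, stood at 62.2 and 57.2 CPM in NCD against 43.4 and 34.3 CPM in HFD (log2 change -0.62, SE 0.12, edgeR adjusted p = 0.0153), and leaving out NCD replicate 1 removed the call (edgeR adjusted p = 0.0560). Its inactivating partner Kcnmb2 fell alongside, from 29.4 and 34.5 to 20.7 and 18.6 CPM (log2 change -0.70, SE 0.12, edgeR adjusted p = 0.00808). Kcnmb1, the BK partner of smooth muscle, stood at 7.21 and 7.56 CPM in NCD against 13.8 and 11.4 CPM in HFD (log2 change 0.77, SE 0.15, edgeR adjusted p = 0.0139). Kcnmb1 was not called when either NCD replicate 1 (edgeR adjusted p = 0.0572) or HFD replicate 1 (0.0584) was left out. The smooth muscle gene Myh11 stood at 12.2 and 11.5 CPM in NCD against 43.1 and 38.6 CPM in HFD in these libraries. Acta2 was also called higher, at a mean of 4.66 CPM in HFD. Tagln was not called (log2 change 0.74, SE 0.38, edgeR adjusted p = 0.199), and Cnn1 had too few counts for the test.

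Kcnn4 encodes the intermediate-conductance channel KCa3.1 of lymphocytes, macrophages and red cells. It stood at 4.42 and 5.43 CPM in NCD against 17.9 and 15.4 CPM in HFD, with no overlap, and rose 3.39-fold (log2 change 1.76, SE 0.17, edgeR adjusted p = 0.00119). B cell markers rose by a median of 2.73 and T cell markers by 3.30 on the log2 scale beside it. The median was 2.63 for monocyte, 2.90 for acinar and 3.66 for fibroblast markers, and -0.27 for macrophage markers. Small-conductance Kcnn3, named after its values were seen, was not called, standing at 19.7 and 19.8 CPM in NCD against 21.5 and 20.7 CPM in HFD (edgeR adjusted p = 0.467). Kcnn1, named after its values were seen, was lower, from 4.96 and 5.87 to 3.39 and 3.14 CPM (edgeR adjusted p = 0.0368), a call lost without any 1 of the 4 libraries (edgeR adjusted p from 0.0582 to 0.138). Kcnu1, a relative of BK known from sperm, stood at 5.44 and 4.73 CPM in NCD against 2.71 and 1.84 CPM in HFD (log2 change -1.16, SE 0.26, edgeR adjusted p = 0.0227), and the call was removed by leaving out NCD replicate 1 (edgeR adjusted p = 0.0782) or HFD replicate 2 (0.0704). Of the 12 genes of this class 11 were tested, 2 higher, 4 lower and 5 not called.

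**Figure D4:**
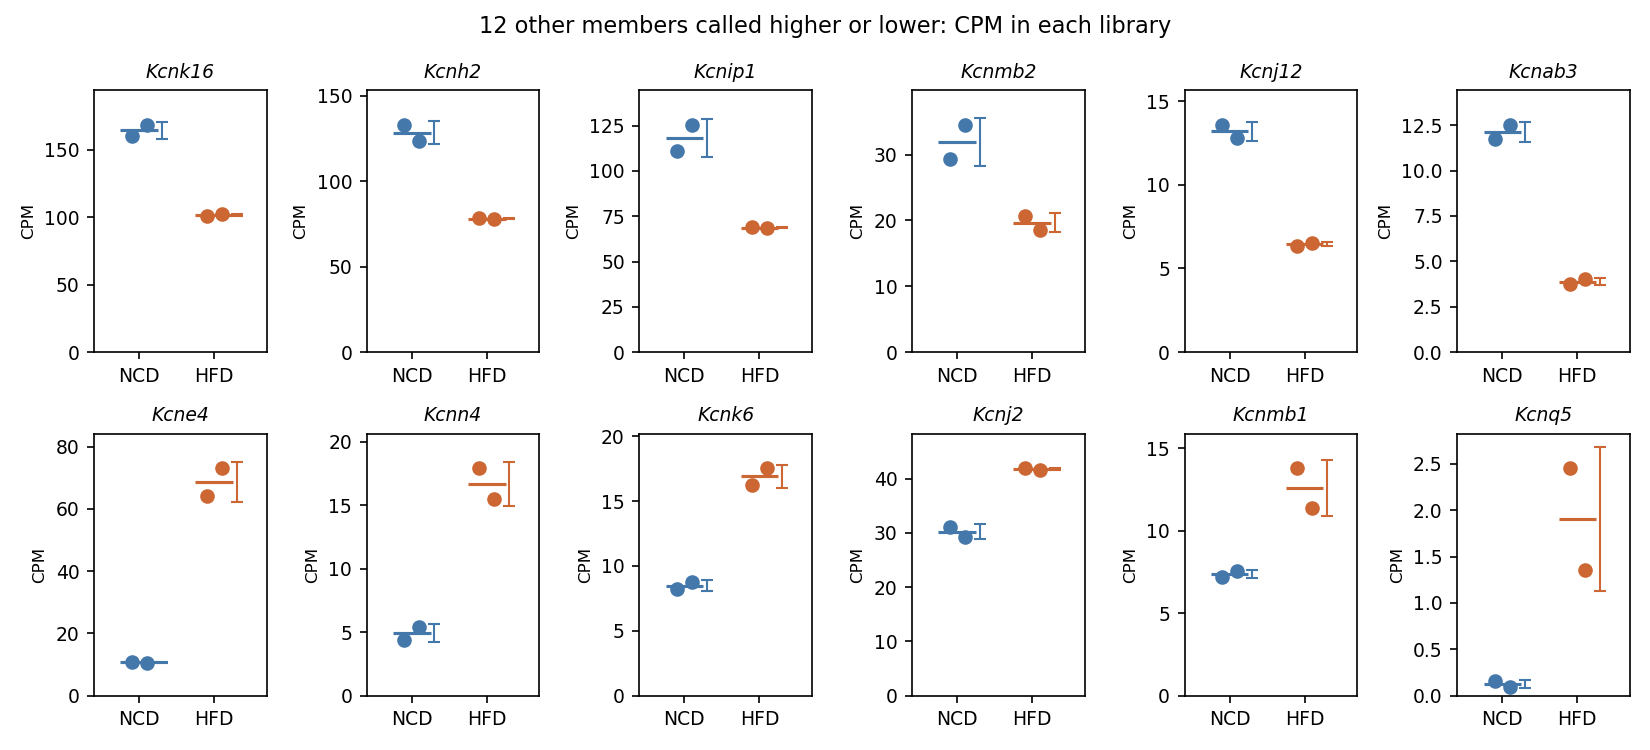
CPM (y axis, from 0, a separate scale for each gene) of 12 further called members in each library (points), with the mean (line) and SD (bar, n = 2) of each diet. The upper row holds genes lower in HFD and the lower row genes higher in HFD, and in each the diets do not overlap.

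The remaining members have Kcn symbols without being channel subunits. The long antisense transcript Kcnq1ot1, which silences genes of its imprinted domain, stood at 43.4 and 37.9 CPM in NCD against 40.4 and 35.8 CPM in HFD and was not called (log2 change -0.10, SE 0.10, edgeR adjusted p = 0.538). Kcnrg, a regulator of Kv1 assembly, and the antisense Kcnmb4os2 were near or below 1 CPM and not called. The 17 members with too few counts for the test had at most 18 counts in any library. The 7 members without a count were Kcna10, Kcnd3os, Kcne1, Kcnk15, Kcnmb4os1, Kcns2 and Kcnv1.

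Other genes of potassium transport, 34 in all, covered pumps, cotransporters, pacemaker channels and accessory proteins without a Kcn symbol. Of these 29 were tested, 12 lower (41.4%) and 4 higher (13.8%), where 14.5% of all genes tested were lower and 17.9% higher, with a median log2 change of -0.17. Leaving out NCD replicate 2, HFD replicate 1 or HFD replicate 2 left 6 lower in each case, and without HFD replicate 1 there were 2 higher. Fxyd6, a regulator of the sodium pump, stood at 127 and 123 CPM in NCD against 63.6 and 64.9 CPM in HFD (log2 change -0.96, SE 0.05, edgeR adjusted p = 0.000250). Its relative Fxyd5 went the other way, from 31.5 and 30.0 to 52.3 and 49.9 CPM (log2 change 0.73, SE 0.07, edgeR adjusted p = 0.00137). The potassium-chloride cotransporters also divided. Slc12a4 stood at 30.4 and 31.0 CPM in NCD against 56.4 and 51.7 CPM in HFD (log2 change 0.81, SE 0.08, edgeR adjusted p = 0.00115), whereas Slc12a7 stood at 80.8 and 77.4 CPM in NCD against 56.2 and 54.0 CPM in HFD (log2 change -0.52, SE 0.06, edgeR adjusted p = 0.00261).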

How the data were processed

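Total RNA of 4 libraries was sequenced after TRIzol extraction and preparation with a stranded KAPA kit, per the labels' protocols. The authors deposited whole-number counts per Ensembl gene, 1 table per library. The submitters' processing notes name HISAT, featureCounts 1.5.0, DESeq 1.8.3 and GRCm38, with no settings. Symbols, coordinates and merged exon lengths came from GENCODE M21 (GRCm38), and the start-site windows from RefSeq (GRCm38.p6). Nothing shows whether strand was used in counting, and 9 of the 28 called members share exonic bases with another gene.

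Counts were tested in R 4.3.3 with edgeR 4.0.16 (quasi-likelihood, TMM, filterByExpr with a minimum count of 10), without a replicate block. SE is the log2 change divided by the root of F. Alternatives used DESeq2 1.42.0, limma 3.58.1, other filters and library sizes, and each library left out. Low counts favoured multiples of 4, by 1.72 to 1.83 over their neighbours, so precision may be below what totals give, and 12 counts were taken as the floor. Members, lists and tests were chosen with earlier results of these data known. Named were the KATP genes, per class up to 4 tested members of smallest p and the one of highest CPM per kb, the 8 largest called changes without overlap, and the 4 transport genes of smallest p. Replicates were not duplicates, with a chi-square per gene of 36.4 in NCD and 22.1 in HFD. Some genes are counted but not reported here by name.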

Additional observations from a re-analysis of the deposited data

How the results depend on the processing

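Of 28 called members, 16 kept their call and direction under all 12 alternatives that refitted the data, 7 of them higher (Kcnn4, Kcnj2, Kcnj8, Abcc9, Kcnk6, Kcne4 and Kcnq5) and 9 lower (Kcnmb2, Kcnj11, Kcnj12, Abcc8, Kcnk16, Kcnab3, Kcnip1, Kcnb2 and Kcnh2). A change of at least 2-fold left 5 higher and 3 lower members, and 1 higher and 1 lower transport gene. With each library left out in turn, 7 to 9 members were higher and 9 to 14 lower, and 2 to 4 transport genes were higher and 6 to 8 lower. The replicate block gave 8 higher and 13 lower members, and 4 and 10 transport genes. Same-numbered libraries did not deviate together (correlation across genes 0.002), so the numbers were not taken to pair the samples. Some changes that were never called changed sign as libraries were left out. Kcnmb4os2 ranged from -6.60 to 0.82 on the log2 scale (0.41 without NCD replicate 2), Kcnq1ot1 from -0.20 to 0.0028, Kcnrg from -0.23 to 0.80 and Kcnf1 from -1.29 to 0.090. The cause was not tested. No member with a mean under 1 CPM in both diets was called, where 2 libraries per diet and low counts in steps limit the test.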
